A study of Mus musculus with 12 samples.

Results

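The genes of the biliary epithelium and the ductular reaction were followed in whole mouse liver: Krt19, Krt7, Epcam, Sox9, Spp1, Cftr, Cldn7 and Tm4sf4. They were found by gene name in the deposited expression table, where all 8 were present among 21936 genes. Liver RNA of C57BL/6 mice with chronic fibrosis had been sequenced, and the groups compared were LFG, REG and hADMSCs-Exo with 3 libraries each, 9 of the 12 samples of the series. The remaining 3 samples, hADMSCs, were not analysed here. All mice of the 3 groups had received carbon tetrachloride (CCl4), which injures hepatocytes, at 1 mL/kg 2 times per week for 8 weeks. The mice were 6 weeks old on arrival and were acclimatized before the first dose. LFG, the fibrosis group, was then sacrificed without further treatment. REG, the regression group, was left to recover for 4 weeks with tail vein injections of saline (200 µL, 2 times per week). hADMSCs-Exo received exosomes shed by human adipose mesenchymal stem cells on the same schedule, 250 µg of protein in 200 µL. REG and hADMSCs-Exo livers were therefore 4 weeks further from the last CCl4 dose than LFG livers, and came from correspondingly older mice. Against LFG the time without CCl4, the age and the injections cannot be told apart. Every RNA sample was whole liver, in which cholangiocytes are a small minority, so fewer cells of a type and less RNA per cell cannot be told apart. The labels do not say that the libraries of a group came from separate mice, and p-values then measure only the spread between these libraries.

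Cholangiocytes line the bile ducts, modify bile by secreting chloride and bicarbonate, and are held together by tight junctions over a cytoskeleton of simple epithelial keratins. In chronic liver injury, small ductules with cells between a cholangiocyte and a hepatocyte phenotype expand around the portal tracts, which is called the ductular reaction. Notch ligands and receptors, the co-activators YAP and TAZ, and cytokines such as TWEAK are known to promote it. Not all of the 8 genes are restricted to ducts: Spp1 is also made by macrophages and myofibroblasts, and Sox9 by some periportal hepatocytes.

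The genes lie on 6 chromosomes of GRCm38. Krt19 is at chr11:100140810-100148665 on the minus strand. The other 7 are on the plus strand: Sox9 at chr11:112782224-112787760, Cldn7 at chr11:69964779-69967885, Krt7 at chr15:101411043-101430313, Epcam at chr17:87635979-87651129, Spp1 at chr5:104435118-104441050, Tm4sf4 at chr3:57425314-57441677 and Cftr at chr6:18170687-18322768. All 8 are protein coding in GENCODE. Krt7 overlaps the antisense gene Gm671, Cftr the antisense gene Gm15592 and the pseudogene Gm15595, and Spp1 the unproven transcript Gm42793, and counts at these positions are less certain because the use of strand is not given in the sources used here. A RefSeq promoter sequence was at hand for 6 of the 8 genes (all but Krt19 and Sox9). The 250 bases before the RefSeq start are shown for Epcam, Krt7 and Spp1, which were lower in REG than in LFG once LFG replicate 3 was left out, and for Tm4sf4, whose level differed least between groups. They are the plus strand of GRCm38.p6 at chr17:87635729-87635978, chr15:101412153-101412402, chr5:104434861-104435110 and chr3:57425160-57425409. The Krt7 window lies inside the deposited gene, which starts further upstream, and the Tm4sf4 window reaches past the deposited start. Capitals mark the match to a motif named below, on either strand, which only the Spp1 window holds.
Epcam: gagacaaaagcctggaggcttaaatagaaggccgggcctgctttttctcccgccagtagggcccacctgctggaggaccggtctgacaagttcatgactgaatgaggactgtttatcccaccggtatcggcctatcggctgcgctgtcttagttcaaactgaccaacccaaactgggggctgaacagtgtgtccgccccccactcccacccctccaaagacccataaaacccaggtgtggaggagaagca
Krt7: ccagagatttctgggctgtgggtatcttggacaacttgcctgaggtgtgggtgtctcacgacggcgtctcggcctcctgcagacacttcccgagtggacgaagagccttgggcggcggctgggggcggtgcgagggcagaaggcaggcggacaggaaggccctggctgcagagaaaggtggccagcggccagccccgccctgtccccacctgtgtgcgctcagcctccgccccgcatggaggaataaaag
Spp1: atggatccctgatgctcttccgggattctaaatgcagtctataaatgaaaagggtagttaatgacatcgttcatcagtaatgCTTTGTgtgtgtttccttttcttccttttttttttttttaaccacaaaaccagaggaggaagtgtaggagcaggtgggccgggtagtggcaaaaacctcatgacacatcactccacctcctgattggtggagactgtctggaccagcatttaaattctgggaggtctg
Tm4sf4: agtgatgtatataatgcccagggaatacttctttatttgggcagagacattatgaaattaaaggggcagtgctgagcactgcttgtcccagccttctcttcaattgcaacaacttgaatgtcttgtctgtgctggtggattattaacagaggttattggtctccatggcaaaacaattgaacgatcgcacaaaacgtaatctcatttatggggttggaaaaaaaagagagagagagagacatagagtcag
Short cores of factors known from the biliary epithelium were searched on both strands of these 250 bases. ACAAAG, a SOX core, was found in Spp1 (168 to 163 bases before the start) and in 16.5% of all 32851 promoters. GGAATG, the TEAD core, was found only in Cldn7 among the 6 genes (70 to 65 bases before the start) and in 12.6% of all promoters. TGGGAA, the RBPJ core of Notch signaling, and TGANTCA, the AP-1 site, were found in none of the 6 windows and in 21.6% and 6.75% of all promoters. These are matches of letters and not measured binding sites.

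Total counts ranged from 13837445 to 19840917 per library. One library stood apart: in LFG replicate 3, the shallowest, the macrophage gene Adgre1 had 19 counts against 1801 and 984 in LFG replicates 1 and 2, the macrophage gene Gpnmb had 0 against 4388 and 969, and the stellate cell gene Acta2 had 7 against 428 and 290. Across marker lists, LFG replicate 3 differed from the mean of the other two LFG libraries by a median of -3.90 on the log2 CPM scale for 12 macrophage markers, -3.48 for 9 stellate cell and myofibroblast markers, -1.97 for 8 sinusoidal endothelium markers and 0.37 for 10 hepatocyte markers, against -0.02 over 12758 genes. CPM are counts scaled to library size with TMM factors, and log2 CPM were taken with a prior count of 2. For the 8 genes and the biliary, secretion and signal lists, calls and medians against LFG are therefore given with and without LFG replicate 3. For the marker lists of other cell types only some of these values are given. For the gene lists this choice was made after the values of LFG replicate 3 had been seen. Of other defining duct markers, Sctr, the secretin receptor of cholangiocytes, had 0 to 9 counts per library.

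The 8 genes spanned a wide range of levels. Per length and depth (FPKM), Tm4sf4, a tetraspan membrane protein of liver and gut epithelia, ranged from 60.9 to 91.9 over the 9 libraries. Spp1, the secreted phosphoprotein osteopontin, ranged from 20.2 to 144. The other 6 genes were low in every library, with FPKM of 0.897 to 2.58 for Sox9, 0.461 to 5.20 for Epcam, 0.117 to 3.28 for Krt19, 0.156 to 1.13 for Cldn7, 0.101 to 0.510 for Krt7 and 0 to 0.0895 for Cftr. Tm4sf4 was the highest of the 8 in 8 of 9 libraries and Spp1 in LFG replicate 1, while Krt7 and Cftr were the lowest in all 9. Epcam, Sox9 and Krt19 changed places from library to library. Krt7 FPKM rests on a length of 7049 bases, the union of the exons of 5 transcripts.

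Krt19 and Krt7 are the keratins that mark bile duct cells. In CPM, Krt19 was at 2.56, 5.54 and 0.266 in LFG replicates 1 to 3, at 2.77, 2.21 and 1.44 in REG, and at 0.951, 1.69 and 2.02 in hADMSCs-Exo. LFG held both the highest and the lowest Krt19 value, so the groups overlapped throughout. LFG replicate 3 had only 3 Krt19 counts (exact Poisson 95% interval 0.619 to 8.77, counting error only) against 61 and 100 in the other LFG libraries. Krt7 was at 2.61, 3.27 and 0.976 CPM in LFG, at 0.801, 0.772 and 1.23 in REG, and at 1.43, 0.904 and 1.01 in hADMSCs-Exo. LFG replicates 1 and 2 were above all 6 libraries of the other groups, and LFG replicate 3 was among them.

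Epcam is an adhesion protein of bile duct and progenitor cells, and Cldn7 a claudin of their junctions. Epcam was at 8.28, 7.10 and 1.24 CPM in LFG, at 3.82, 3.64 and 2.45 in REG, and at 3.09, 1.93 and 2.59 in hADMSCs-Exo. Its lowest and its highest levels were both in LFG, the lowest in replicate 3. Cldn7 was at 1.60, 1.55 and 0.621 CPM in LFG, at 0.986, 1.05 and 0.426 in REG, and at 0.773, 0.301 and 0.506 in hADMSCs-Exo. With 5 to 38 counts per library, Cldn7 was near the lower limit of what could be compared at this depth.

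Sox9, the transcription factor of biliary and progenitor cells, showed another pattern. It was at 6.35, 6.76 and 6.30 CPM in LFG, at 6.10, 8.49 and 11.3 in REG, and at 4.40, 5.85 and 3.98 in hADMSCs-Exo. LFG replicate 3 lay within 0.1 log2 units of the other LFG libraries for this gene (-0.06), and every hADMSCs-Exo library was below every library of the other groups on this scale. On the FPKM scale, which lacks TMM scaling, hADMSCs-Exo (1.09, 1.43 and 0.897) overlapped LFG (2.12, 1.79 and 1.24) and stayed below REG (1.44, 1.89 and 2.58).

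Spp1 was at 172.5, 123.4 and 40.8 CPM in LFG, at 54.6, 59.5 and 54.2 in REG, and at 43.4, 47.4 and 118.8 in hADMSCs-Exo. The REG libraries were close together (SD 0.08 log2 CPM, n = 3), whereas LFG replicate 3 was low (SD in LFG 1.09) and hADMSCs-Exo replicate 3 high (SD 0.80). Tm4sf4 was the steadiest member: it was at 96.5, 125.4 and 111.8 CPM in LFG, at 124.8, 135.2 and 101.2 in REG, and at 119.2, 105.1 and 138.9 in hADMSCs-Exo. In LFG replicate 3, Tm4sf4 differed from the mean of the other LFG libraries by 0.02 log2 units, against -3.35 for Krt19. Which cells made Tm4sf4 was not tested. Cftr, the chloride channel of the apical cholangiocyte membrane, had 12, 3 and 0 counts in LFG, 5, 3 and 5 in REG, and 1, 1 and 2 in hADMSCs-Exo. With a floor of 3 counts, the 0 in LFG replicate 3 allows up to 0.0279 FPKM, and the upper end of its exact Poisson 95% interval is 3.69 counts. Cftr did not pass edgeR's filter on low counts and was the only one of the 8 that was not tested.

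**Figure D1:**
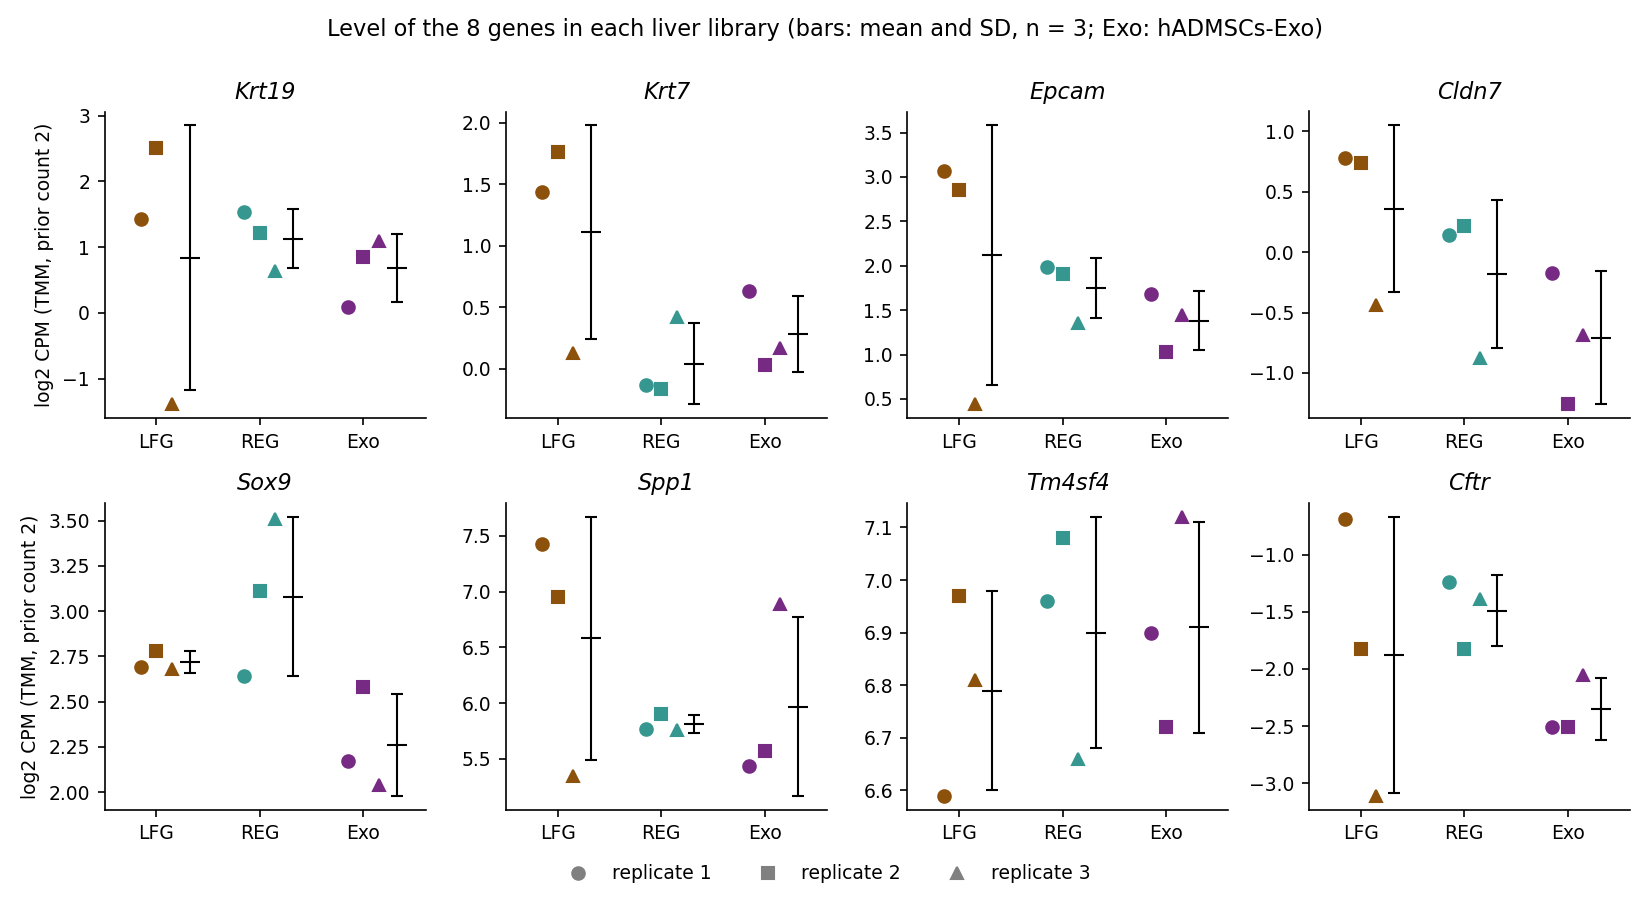
Level of each gene (log2 CPM, vertical axis, with its own range per panel) in the 3 LFG, 3 REG and 3 hADMSCs-Exo libraries (Exo). Points are libraries with 1 symbol per replicate number, and bars give the mean and SD. LFG replicate 3 (triangle) was the lowest LFG library for every gene but Tm4sf4, and for Sox9 by a small margin only.

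Whether biliary genes were lower 4 weeks after CCl4 had been stopped was asked by REG against LFG. With all 6 libraries, none of the members passed the thresholds. The log2 fold changes were -1.29 (SE 0.55) for Krt7, -0.75 (SE 0.64) for Epcam, -0.63 (SE 0.58) for Cldn7 and -0.39 (SE 0.86) for Krt19, and 0.41 (SE 0.29) for Sox9 and 0.11 (SE 0.21) for Tm4sf4. Spp1 was at a 1.997-fold lower level in REG (SE 0.47 on the log2 scale). Of 7 tested genes, 0 were called by the quasi-likelihood test of edgeR, where a call needs a Benjamini-Hochberg adjusted p under 0.05 and a log2 fold change of 1 or more in size, and the share called over all 12517 genes was 0%. The smallest adjusted p of the 7 was 0.442, for Krt7. At an unadjusted p under 0.05, 0 of 7 passed against 11.3% of all genes, and 0 of 7 had groups that did not overlap against 18.9%. The median log2 fold change of the 7 was -0.63, beside -0.07 over all genes tested, and ranged from -0.91 without LFG replicate 3 to -0.28 without REG replicate 3 when 1 library was left out. DESeq2 also called 0, whereas limma voom with quality weights, which gives less weight to libraries that stand apart, called Epcam, Krt7 and Spp1 lower (6.74% of all genes were called lower).

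Without LFG replicate 3, the same 3 genes were called lower in REG, against 6.94% of all genes. Spp1 fell by 1.37 on the log2 scale (SE 0.19, adjusted p = 0.0145 by edgeR's quasi-likelihood test, range over the settings tried 0.0145 to 0.928). Krt7 fell by 1.61 (SE 0.40, adjusted p = 0.0372, edgeR, range 0.0203 to 0.928), and Epcam fell by 1.19 (SE 0.29, adjusted p = 0.0362, edgeR, range 0.0362 to 0.938). The levels of these 3 genes in LFG replicates 1 and 2 were above all 3 REG libraries, and with Cldn7 (-0.91, adjusted p = 0.226) 4 of 7 genes were lower in REG without overlap, against 29.2% of all genes. Krt19 had a log2 fold change of -0.88 (SE 0.45, adjusted p = 0.192, edgeR). In this comparison Krt19 depended on single libraries in its sign: without LFG replicate 2 it was 0.55. Only 2 LFG libraries remain in these fits, and the macrophage and stellate cell markers named above are high in both.

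In hADMSCs-Exo against LFG, the same question was asked with exosomes given in the 4 weeks after CCl4. The log2 fold changes were -1.29 (SE 0.61) for Cldn7, -1.16 (SE 0.66) for Epcam, -1.07 (SE 0.55) for Krt7, -0.89 (SE 0.90) for Krt19, -0.71 (SE 0.60) for Spp1 and -0.47 (SE 0.28) for Sox9, and 0.10 (SE 0.20) for Tm4sf4. None of the 7 was called (0% of 12489 genes), with adjusted p of at least 0.805 by edgeR's quasi-likelihood test, and DESeq2 and limma voom also called 0. At an unadjusted p under 0.05, 0 of 7 passed against 5.98% of all genes. Sox9 was the only gene whose groups did not overlap, 1 of 7 against 12.3% of all genes. The median log2 fold change of the 7 was -0.89, beside -0.06 over all genes tested, and ranged from -1.37 without LFG replicate 3 to -0.59 without hADMSCs-Exo replicate 1 when 1 library was left out.

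Without LFG replicate 3, Epcam was called (4.50% of all genes were called lower): it fell by 1.60 on the log2 scale (SE 0.30, adjusted p = 0.0303 by edgeR's quasi-likelihood test, range over the settings tried 0.0303 to 1). The log2 fold changes of Cldn7 (-1.57), Krt7 (-1.39), Krt19 (-1.37) and Spp1 (-1.08) did not pass, with adjusted p from 0.0771 for Krt7 to 0.160 for Spp1 (edgeR). All 6 genes other than Tm4sf4 were then lower in hADMSCs-Exo without overlap, against 24.9% of all genes. For Krt19 the sign again rested on 1 library, with a log2 fold change of 0.06 without LFG replicate 2. The comparisons of REG and of hADMSCs-Exo with LFG share the LFG libraries, so their values are not independent of each other.

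In hADMSCs-Exo against REG, the comparison of exosomes with saline, no member was called. Sox9 had the lowest adjusted p of the 7 at 0.409 (edgeR, Benjamini-Hochberg adjustment). Its log2 fold change was -0.86 (SE 0.28, unadjusted p = 0.0136 by edgeR), its mean FPKM was 1.14 ± 0.267 in hADMSCs-Exo and 1.97 ± 0.578 in REG (SD, n = 3), and it was lower in 3 of 3 hADMSCs-Exo libraries than in any REG library. It was 1 of 7 at an unadjusted p under 0.05 (10.0% of all genes) and 1 of 7 without overlap (15.5% of all genes), and the share called over all 12337 genes was 0.00811%. The other log2 fold changes were -0.63 (SE 0.54) for Cldn7, -0.46 (SE 0.41) for Krt19, -0.38 (SE 0.31) for Epcam, 0.32 (SE 0.36) for Spp1, 0.25 (SE 0.40) for Krt7 and 0.01 (SE 0.16) for Tm4sf4, with a median over the 7 of -0.38 beside 0.01 over all genes tested. The median was -0.21 without hADMSCs-Exo replicate 1, -0.22 without hADMSCs-Exo replicate 2 or REG replicate 1, and -0.56 without REG replicate 3, its range when 1 library was left out. The sign of the Spp1 value rested on hADMSCs-Exo replicate 3, without which it was -0.31. DESeq2 and limma voom called 0 of the 7 as well. Cftr, summed over 3 libraries, had 4 counts in hADMSCs-Exo and 13 in REG, with an adjusted p of 0.672 when edgeR's filter was lifted.

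**Figure D2:**
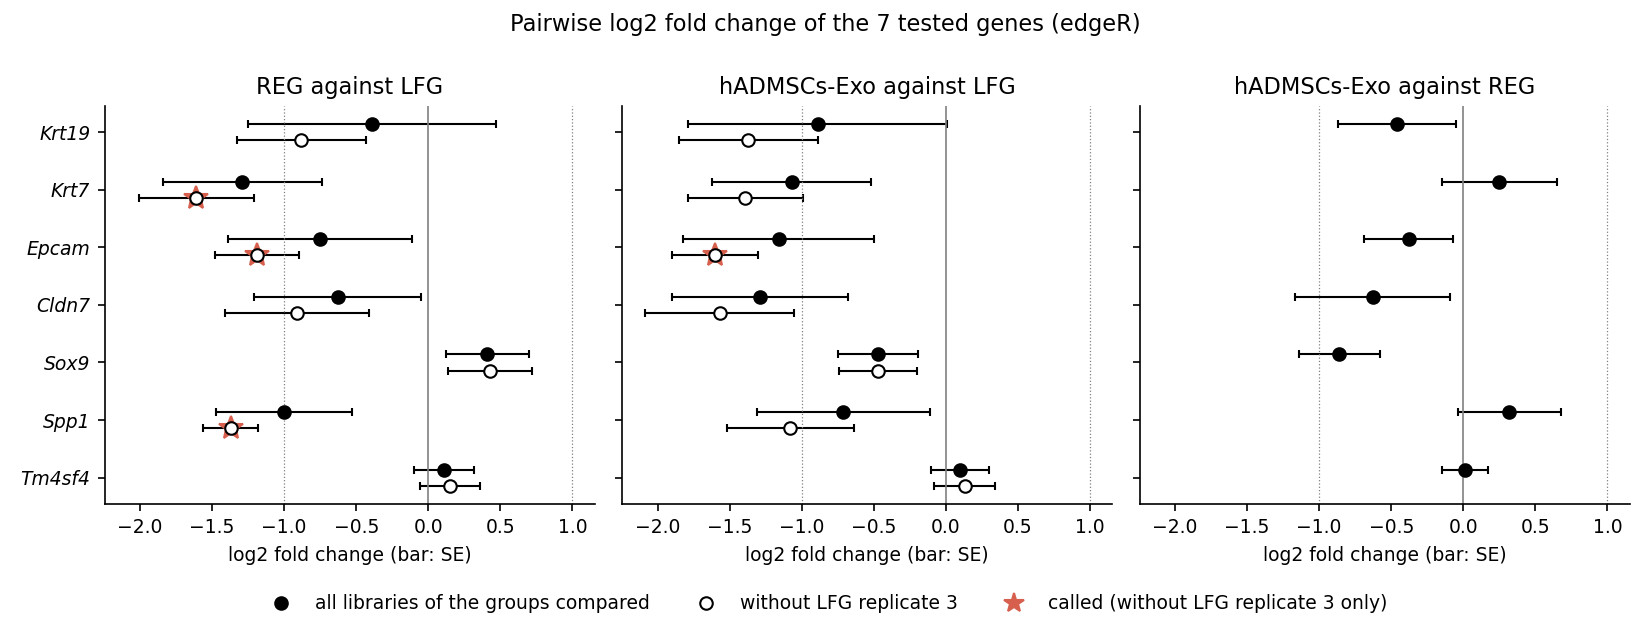
Log2 fold change (horizontal axis, bars SE) of the 7 tested genes in the 3 comparisons, with all libraries (filled) and without LFG replicate 3 (open), dotted lines at an absolute value of 1. Stars mark genes called, which were Krt7, Epcam and Spp1 in REG against LFG and Epcam in hADMSCs-Exo against LFG, all without LFG replicate 3.

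Other genes of the biliary epithelium and the ductular reaction were read beside the 8. Of 32 listed genes 31 were in the table. With all libraries, 23 of 27 tested genes had negative log2 fold changes in REG against LFG (median -0.85) and 22 of 28 in hADMSCs-Exo against LFG (median -0.79), and 4 of them in each were lower at an unadjusted p under 0.05, with 0 called by edgeR. Over all genes, 11.3% in REG and 5.98% in hADMSCs-Exo had such a p in either direction. The medians without LFG replicate 3 were -1.14 and -1.15. In hADMSCs-Exo against REG, 13 of 25 were positive and 12 negative, with a median of 0.01. The genes with the smallest p in REG against LFG were Sorbs2, a cytoskeletal adaptor (-0.85, adjusted p = 0.318), Atp1b1, a sodium pump subunit (-0.76, adjusted p = 0.392), and Vtcn1, a B7 family protein (-1.97, adjusted p = 0.392, edgeR). In hADMSCs-Exo against LFG they were Prom1, the progenitor marker CD133 (-3.45), Dcdc2a, a protein of the cholangiocyte cilium (-1.43), and Ncam1, an adhesion protein of reactive ductules (-1.79), each with an adjusted p of 0.805 by edgeR. In hADMSCs-Exo against REG they were Sorbs2 (0.75, adjusted p = 0.394), the apical mucin Muc1 (-0.92, adjusted p = 0.463) and Prom1 (-1.67, adjusted p = 0.498, edgeR).

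Prom1 had 404, 225 and 6 counts in LFG, 108, 23 and 19 in REG, and 17, 14 and 15 in hADMSCs-Exo. REG replicate 1 and LFG replicates 1 and 2 were thus high, and the remaining 6 libraries were low. Sorbs2 had 1653, 1180 and 570 counts in LFG, 474, 553 and 817 in REG, and 1082, 1056 and 731 in hADMSCs-Exo.

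Without LFG replicate 3, edgeR called 7 of 29 of these genes lower and 1 higher in REG, and 7 of 29 lower and 0 higher in hADMSCs-Exo, against LFG, where 6.94% and 4.50% of all genes were called lower. The share of all genes called higher is not given here, so the counts called higher cannot be weighed against it. Adjusted p of the genes called lower was 0.0119 to 0.0367 in REG and 0.00309 to 0.0377 in hADMSCs-Exo (edgeR). These genes are named because they were called, after their values had been seen. Lower in both comparisons were Mmp7, a metalloproteinase of injured ducts (log2 fold changes of -2.31 in REG and -3.20 in hADMSCs-Exo), Ehf, an epithelial transcription factor (-2.26 and -2.29), Bicc1, an RNA-binding protein (-2.16 and -2.55), and St14, a membrane serine protease (-1.98 and -1.93). Cdh1, Cd24a and Ezr were called lower only in REG and Prom1, Cldn4 and Tspan8 only in hADMSCs-Exo, and a difference between the comparisons was not tested. Cldn3, a claudin that hepatocytes also express, was the gene called higher in REG (1.03, adjusted p = 0.0333, edgeR). Its mean level in LFG was 65.1 CPM, beside 74.6 for Cdh1 and 2.79 for Krt19. Which cells made Cldn3, Cdh1 or the other genes called was not tested. Mmp7 had 223, 185 and 0 counts in LFG, 30, 45 and 27 in REG, and 7, 22 and 23 in hADMSCs-Exo.

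**Figure D3:**
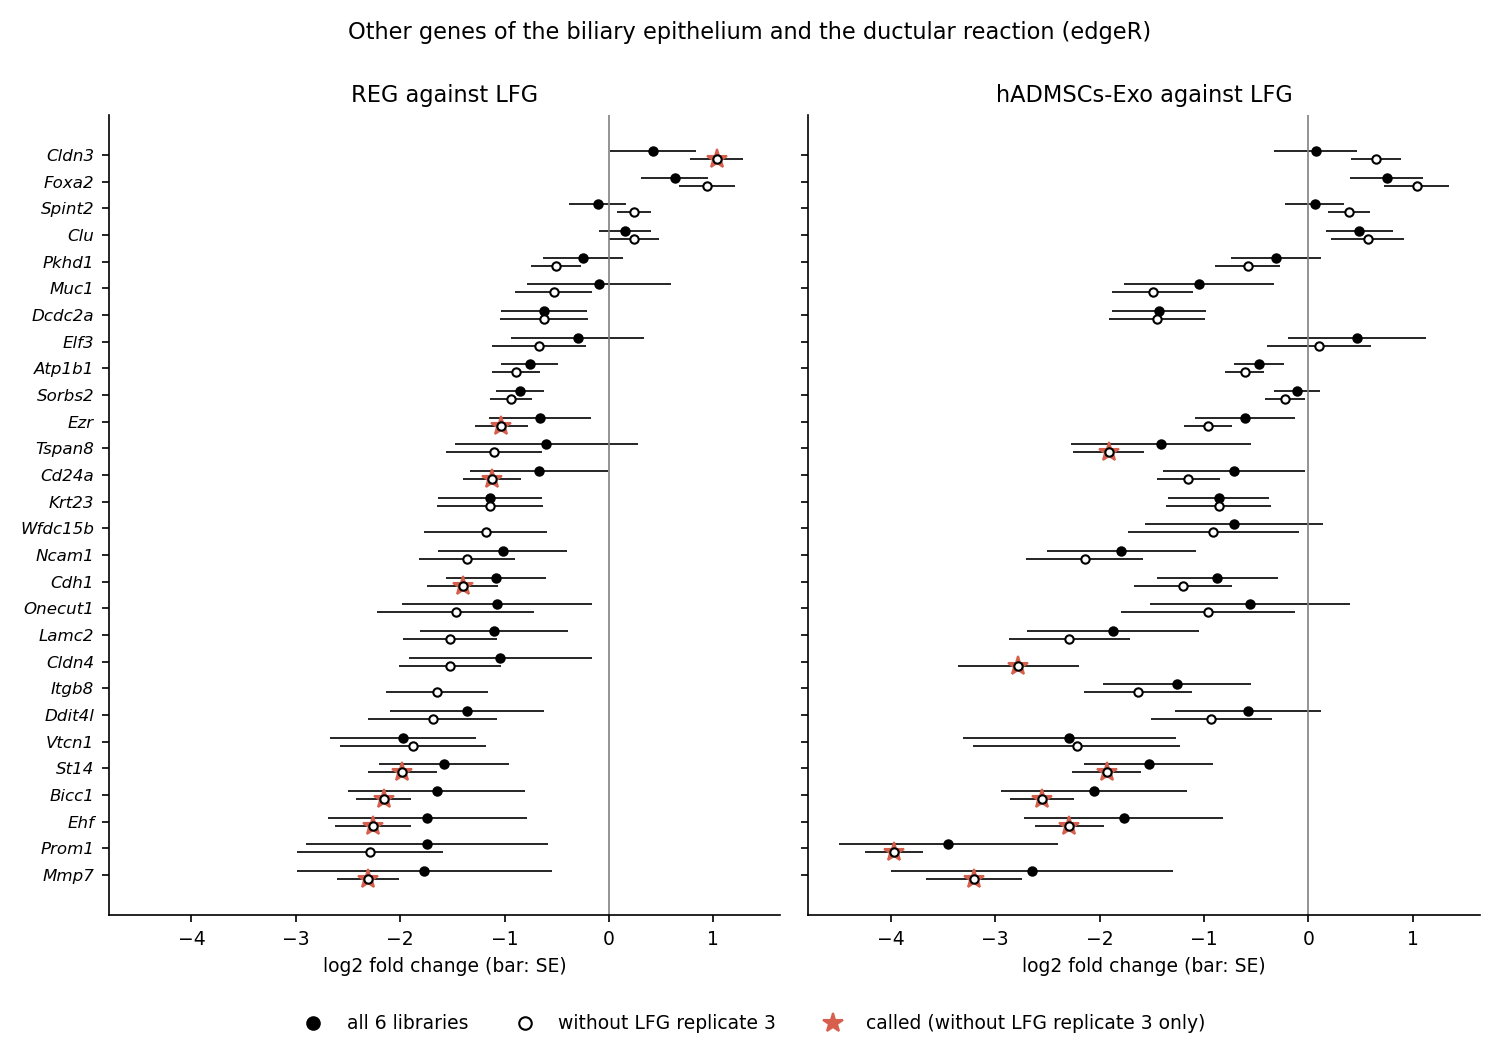
Log2 fold change (horizontal axis, bars SE) of 28 of the 29 other biliary genes tested without LFG replicate 3, in REG (left) and hADMSCs-Exo (right) against LFG, with all 6 libraries (filled) and without LFG replicate 3 (open). Stars mark the genes called, which included Mmp7, Ehf, Bicc1 and St14 in both panels and Cldn3 as the gene called higher.

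Of 14 genes of ductal secretion and bile alkalinization, 10 were tested in each comparison and 0 were called with all libraries. The median log2 fold changes were -0.34 in REG and -0.14 in hADMSCs-Exo against LFG and -0.03 in hADMSCs-Exo against REG, and without LFG replicate 3 those against LFG were -0.48 and -0.34. The smallest p was that of Slc5a1, a glucose carrier, in both comparisons with LFG (-0.93, adjusted p = 0.507, and -1.22, adjusted p = 0.805, edgeR). Without LFG replicate 3, Itpr3, the calcium channel of the apical cholangiocyte pole, was the gene called, lower in REG (-1.14, adjusted p = 0.0460, edgeR), and 1 of 10 lies near the 6.94% of all genes called lower.

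Among signals known to promote the ductular reaction, 0 genes were called with all libraries in any comparison (edgeR). Notch signaling (13 of 16 genes tested) had medians of -0.18 in REG and -0.02 in hADMSCs-Exo against LFG (-0.42 and -0.38 without LFG replicate 3). Its gene with the smallest p in both comparisons was Sox4, a biliary transcription factor placed in this list, which had 154, 141 and 21 counts in LFG, 16 to 35 in REG and 19 to 29 in hADMSCs-Exo. Its log2 fold change was -1.76 in REG, with overlap (unadjusted p = 0.0199, adjusted p = 0.388, edgeR), and -1.93 in hADMSCs-Exo, without overlap (unadjusted p = 0.0125, adjusted p = 0.805, edgeR), and without LFG replicate 3 it was called lower in both (-2.12 and -2.30, adjusted p of 0.0159 and 0.0210). Dll4, the Notch ligand of endothelial cells, was at 1.49 in REG against LFG without overlap (unadjusted p = 0.0417, adjusted p = 0.430, edgeR), and the receptor Notch1 was at 1.04 in hADMSCs-Exo against REG (unadjusted p = 0.0237, adjusted p = 0.440, edgeR). The receptor Notch3 was at -1.25 in hADMSCs-Exo against LFG (unadjusted p = 0.0472, adjusted p = 0.805, edgeR). Jag1, the Notch ligand of portal and biliary cells, was at -0.97 in REG and -0.77 in hADMSCs-Exo against LFG (unadjusted p of 0.0443 and 0.0432, adjusted p of 0.432 and 0.805, edgeR). YAP/TAZ factors and target genes (15 tested) had medians of -0.51 and -0.43 against LFG (-0.63 and -0.34 without LFG replicate 3), and of 0.11 in hADMSCs-Exo against REG. Yap1 itself was at -0.51 in REG (unadjusted p = 0.0334, adjusted p = 0.410, edgeR) and -0.34 in hADMSCs-Exo. Lats2, a kinase that inhibits YAP, was at -0.74 in REG, and Birc5, a gene of dividing cells, at -2.97 (adjusted p = 0.388 for both, edgeR). In hADMSCs-Exo against LFG, Ccn2, a matricellular protein, was at -1.36 and Birc5 at -2.38 (adjusted p = 0.805 for both, edgeR). Amotl2, an angiomotin that binds YAP, was at 0.64 in hADMSCs-Exo against REG (unadjusted p = 0.0309, adjusted p = 0.463, edgeR). Growth signals (15 of 20 tested) had medians of -0.29 and -0.30 against LFG (-0.40 and -0.72 without LFG replicate 3) and 0.24 in hADMSCs-Exo against REG. Of these, the chemokine Cxcl1 was at -0.74 and the HGF receptor Met at 0.58 in hADMSCs-Exo against LFG (adjusted p = 0.805 for both, edgeR). Without LFG replicate 3, the genes called lower in REG and in hADMSCs-Exo numbered 2 and 1 for Notch signaling, 3 and 4 for YAP/TAZ, and 4 and 1 for growth signals, of which 1 more was called higher in REG. With 13 to 15 genes tested per list and 6.94% and 4.50% of all genes called lower, counts of 1 lie near that share. The growth signal gene called higher in REG has no such share beside it and is not read as a result.

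Tnfrsf12a, the receptor of TWEAK, had the smallest p of the growth signals in 2 of the 3 comparisons. It had 511, 242 and 168 counts in LFG, 74, 76 and 90 in REG, and 171, 142 and 191 in hADMSCs-Exo. All REG libraries were below all others, and the groups did not overlap in any of the 3 comparisons on the log2 CPM scale. Its log2 fold change was -1.88 (SE 0.26, unadjusted p = 0.000188, adjusted p = 0.243, edgeR) in REG against LFG and 1.18 (SE 0.21, unadjusted p = 0.000397, adjusted p = 0.353, edgeR) in hADMSCs-Exo against REG. In REG against LFG it was called without LFG replicate 3 (-1.92, adjusted p = 0.0133, edgeR).

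Markers of other cell types moved beside the biliary genes, and their part in the results was not tested. The summed CPM of 12 macrophage markers was 1923, 1360 and 163.6 in LFG, 511.5 to 1448 in REG and 927 to 1170 in hADMSCs-Exo. For 10 stellate cell and myofibroblast markers it was 1207, 841.3 and 69.6 in LFG, 213 to 370.5 in REG and 85.0 to 233.4 in hADMSCs-Exo. All 9 tested stellate cell markers had negative log2 fold changes in hADMSCs-Exo against REG (median -1.09). Of these, 6 had an unadjusted p under 0.05 and 0 were called by edgeR, where 10.0% of all genes had such a p in either direction. Sox9 was also below REG in every hADMSCs-Exo library, and a link between Sox9 and these markers was not tested. In LFG replicates 1, 2 and 3, Spp1 was at 172.5, 123.4 and 40.8 CPM, the same order as the macrophage and the stellate cell sums. In REG, Spp1 was at 54.2 to 59.5 CPM while the macrophage sum ran from 511.5 to 1448. In hADMSCs-Exo its highest level, 118.8 CPM, was in replicate 3, which had the highest macrophage sum of that group (1170) and the middle stellate cell sum (131.8). Hepatocyte markers had medians of 0.07 in REG and 0.08 in hADMSCs-Exo against LFG, and endothelium markers of 0.58 and -0.01, with 0 of either list called by edgeR. These medians without LFG replicate 3 were 0.58 and 0.22 for hepatocyte and 0.18 and -0.39 for endothelium markers. The summed CPM of 8 mesothelial markers was 7.19, 16.5 and 10.9 in LFG and 3.45 to 5.97 in REG, without overlap, and 5.05 to 7.84 in hADMSCs-Exo. In REG against LFG all 4 tested had negative log2 fold changes (median -1.09), with Msln at -1.57 (unadjusted p = 0.0334, adjusted p = 0.410) and Upk3b at -1.66 (unadjusted p = 0.102, adjusted p = 0.512), beside -1.29 for Krt7, and 0 were called by edgeR. The medians against LFG without replicate 3 were -1.40 in REG, where Wt1 was called lower, and -0.85 in hADMSCs-Exo. Of 11 pancreatic and intestinal markers 5 to 7 were at 0 in each library. Of those detected, Fabp2 ranged from 19.2 to 93.0 CPM and Cela1 from 6.60 to 32.3 CPM, both highest in LFG replicate 3.

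**Figure D4:**
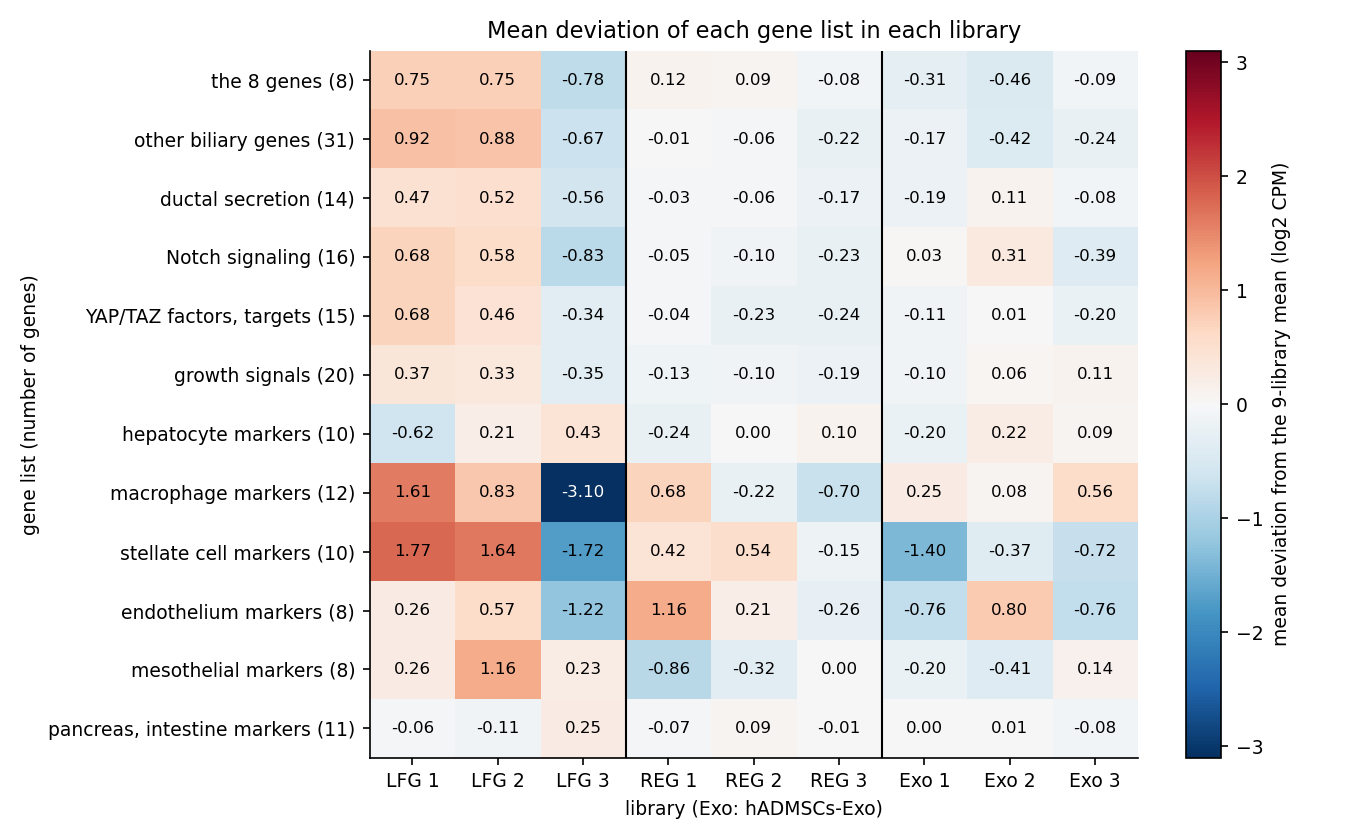
Mean deviation of each gene list (rows, with the number of genes) from its mean over 9 libraries, in log2 CPM, for each library (columns, Exo for hADMSCs-Exo). The 8 genes were at 0.75 in LFG replicates 1 and 2 and at -0.78 in LFG replicate 3, where macrophage markers were at -3.10, and between -0.46 and 0.12 in the other libraries.

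The genes whose levels followed single members most closely over the 9 libraries were sought among 12758 genes by the root mean square difference of log2 CPM after centring each gene. For Krt19 they were Palm (0.292), Tiam1 (0.333) and Fmnl3 (0.337), where the median gene was at 1.08. For Sox9 they were Pygl, the liver glycogen phosphorylase (0.153), Reck (0.190) and Fbxl8 (0.210), where the median gene was at 0.571. For Spp1 they were Cdkl3 (0.220), Ccdc88a (0.257) and Pianp (0.270), where the median gene was at 0.821. The libraries share the low values of LFG replicate 3 across many genes, and the likeness is a description of these 9 libraries.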

How the data were processed

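Total liver RNA was extracted with Trizol and sequenced on an Illumina NovaSeq instrument by the authors. The authors deposited 1 table with raw counts per gene and FPKM for 9 libraries. The submitters' processing notes name cutadapt 1.15, HISAT2 2.0.5, HTSeq 0.9.1, DESeq 1.30.0 and the build GRCm38. Whether counting used strand is not given in the sources used here. The deposited FPKM could be recomputed from counts, gene lengths and library totals with a relative error of no more than 9.19e-07. It was used only for levels between genes and as an alternative scale. Columns named MSC_E were read as hADMSCs-Exo.

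Groups were compared pairwise on the counts with the two-sided quasi-likelihood test of edgeR 4.0.16 (R 4.3.3), after TMM normalization and filterByExpr. Benjamini-Hochberg adjustment was made over all genes tested. A call needed an adjusted p under 0.05 and a log2 fold change of 1 or more in size. The test was checked on simulated data, where it missed most of the smaller inserted differences in every comparison, and many of the larger ones in those with LFG, so that 0 calls do not show equal levels in any of the comparisons. Log2 CPM used a prior count of 2. Exact Poisson intervals (95%) came from scipy 1.17.1 and cover counting error only, and figures were drawn with matplotlib 3.10.9.

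Alternatives were RLE size factors, DESeq2 1.42.0, limma 3.58.1 voom with quality weights, no filter (at least 1 count), a minimum of 10 counts in every library, one fit of all 9 libraries, a block for the replicate number, calls without the fold limit or on the unadjusted p, FPKM, and leaving out each library in turn. The genes named are all 8 and, of 11 other lists (159 genes, 4 of them not in the table), genes among the 3 with the smallest p per comparison and defining markers of cell types. The other biliary genes and Wt1, called without LFG replicate 3, are named too, chosen after their values were seen. The result of 1 listed gene is not reported here. For Krt19, Sox9 and Spp1 the text also names the 3 most similar genes. The members and lists were chosen with earlier results of these data known. Replicate numbers 1 to 3 are shared by the groups. No pairing by these numbers is stated, so the main fits used no block, and the block for the replicate number was only an alternative. Deviations of same-numbered hADMSCs-Exo and LFG libraries from their group means correlated by 0.101, 0.308 and 0.179 across genes, which does not establish pairs. Promoter windows came from RefSeq (GRCm38.p6).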

Additional observations from a re-analysis of the deposited data

How the results depend on the processing

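The number of members called was 0 in hADMSCs-Exo against REG under each alternative, also with an unadjusted p and the fold limit kept, since Sox9, the gene with an unadjusted p under 0.05, had a log2 fold change of -0.86. Against LFG it ranged from 0 to 1 for hADMSCs-Exo and from 0 to 3 for REG when each library was left out, with the highest values, 1 and 3, without LFG replicate 3. Limma voom with quality weights gave 3 for REG against LFG. With the replicate number as a block 0 members were called in each comparison, and the block changed no member's call. For hADMSCs-Exo and REG the same-numbered libraries correlated by 0.157, 0.00639 and 0.0374, and for REG and LFG by 0.414, -0.20 and 0.306. No pairing is stated in any of the comparisons, where same-numbered libraries are known to share only a number. The log2 fold change of Krt19 in REG against LFG was 0.15 with the block and, with each library left out, ranged from -0.88 to 0.55. In hADMSCs-Exo against LFG it ranged from -1.37 to 0.06. In hADMSCs-Exo against REG, Spp1 ranged from -0.31 to 0.56 and Tm4sf4 from -0.11 to 0.10 with each library left out, and Tm4sf4 was -0.00 with RLE size factors and -0.01 with limma voom. As a log2 ratio of mean FPKM, Tm4sf4 was -0.02 in hADMSCs-Exo and -0.08 in REG against LFG. The causes of these sign changes were not tested. Without LFG replicate 3 the other biliary genes called against LFG numbered 7 for hADMSCs-Exo and 8 for REG. Depth limited Cftr (0 to 12 counts) and Cldn7 (5 to 38 counts).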
